A study of Homo sapiens with 6 samples.

Results

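The mRNAs of cytoplasmic dynein, dynactin, their adaptors and regulators, and the transport kinesins were compared between RNA bound to the FERRY complex and RNA bound to the affinity tag alone. The 41 genes, of 60676 in the count table, were taken by name: 9 dynein subunits, 11 dynactin subunits, 4 dynein adaptors, 3 dynein regulators, 5 genes of kinesin-1, 2 of kinesin-2, 6 of kinesin-3 and 1 of kinesin-4. All 41 had at least 35 counts in each library, and all were tested. HEK 293, a human embryonic kidney cell line, was grown in suspension, and its lysate was passed over glutathione resin that carried either the FERRY complex fused to glutathione S-transferase (GST-Ferry, 3 libraries) or GST by itself (GST, 3 libraries). FERRY binds the active form of RAB5, a GTPase of early endosomes, and its subunits are TBCK, PPP1R21, C12orf4, CRYZL1 and GATD1. No genotype or treatment other than the bait differed between the groups in the labels. No library of the input lysate was used here, so the abundance of an mRNA in the lysate and its recovery on the resin cannot be told apart.

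Cytoplasmic dynein is the motor that carries cargo towards the minus ends of microtubules, and it needs dynactin and a cargo adaptor for long movements. Most transport kinesins walk the other way, towards plus ends. Early endosomes move in both directions: the HOOK adaptors link them to dynein and dynactin, and KIF16B of kinesin-3 binds a phosphoinositide of their membrane.

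The GST-Ferry libraries held 6532665, 2671831 and 2454538 counts, and the GST libraries held 9388865, 10466520 and 7390346. The 41 genes took between 0.499% and 0.53% of counts with GST-Ferry and between 0.438% and 0.529% with GST. As a check of the labels, the bait subunit PPP1R21 had 798, 18289.5 and 37618 CPM in GST-Ferry 1, 2 and 3, against 39.4, 44.6 and 40.8 CPM in GST 1, 2 and 3 (CPM is the normalised read count, scaled by TMM to the library total). TBCK and C12orf4 also lay above all GST libraries in every GST-Ferry library, and for these 3 genes GST-Ferry 1 was far below GST-Ferry 2 and GST-Ferry 3. The groups overlapped for the other subunits. CRYZL1 had 48, 77.6 and 64.4 CPM in GST-Ferry 1, 2 and 3, against 77.2, 104 and 84.7 CPM in GST 1, 2 and 3, and GATD1 had 119.7, 121 and 165 CPM in GST-Ferry 1, 2 and 3, against 125, 155 and 92.1 CPM in GST 1, 2 and 3. GST 3 stood apart from GST 1 and GST 2. For 16 of the 41 genes it differed from the mean of these libraries by more than 0.5 on the log2 scale, as did 47.2% of all tested genes.

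None of the 41 motor mRNAs passed the test between the baits, and the fitted log2 fold changes of GST-Ferry over GST ran from -0.54 (HOOK3) to 0.90 (DYNLRB1). With edgeR's quasi-likelihood test and Benjamini-Hochberg adjustment over 15546 genes, 0 were called higher with GST-Ferry (0.592% of all tested genes were) and 0 lower (0.0322%), at an adjusted p under 0.05. The smallest adjusted p was 0.0712, for CAPZB, followed by ACTR1A and DYNLRB1. In GENCODE 29 on GRCh38, these genes lie at chr1:19338776-19485539 (minus strand), chr10:102461881-102502711 (minus strand) and chr20:34516409-34540958 (plus strand). By unadjusted p (under 0.05), 7 members were higher and 1, HOOK3, was lower, beside 11.3% and 8.05% of all tested genes. DESeq2 called 2 higher (4.35% of all tested genes) and 0 lower (1.52%), and limma-voom called 0 in either direction (0.0901% higher). A fold change above 0 was found for 30 of the 41 genes, against 47.8% of all tested genes. All members are protein-coding, as are 12859 of the tested genes. The 30 became 24 with library sizes alone, 26 without GST 2, and 34 with offsets for GC content and length. The median log2 fold change of GST-Ferry over GST was 0.18 over the members and -0.03 over all tested genes. All GST-Ferry libraries lay above all GST libraries for 11 members (14.9% of all tested genes) and below them for 1 (12.2%), which makes 12 genes or 29.3% without overlap, beside 27.1% of all tested genes. The 95% interval of the log2 fold change lay within 1 on either side of 0, that is within a doubling or halving, for 33 of the 41 genes and for 56% of all tested genes. It reached above 1 for 7 members and below -1 for 1. All tested genes include some with lower counts than any member, and intervals of genes with like counts were not compared.

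The number of calls depended on the libraries entered and on the method. Without GST 3, edgeR's quasi-likelihood test called 5 of the 41 genes higher (4.45% of 15765 tested genes) and 0 lower (3.54%). These 5 were DYNLL1, with a log2 fold change of 0.57 (adjusted p = 0.0328), DYNLRB1 at 0.79 (adjusted p = 0.0486), ACTR1A at 0.64 (adjusted p = 0.0295), ACTR10 at 0.81 (adjusted p = 0.0371) and CAPZB at 0.79 (adjusted p = 0.0213). All 5 encode subunits of dynein or dynactin, which make up 9 and 11 of the 41 members. Leaving out any of the other libraries gave 0 calls among the members, while 0 to 109 of all genes were called higher. Weighting libraries by their quality in limma called 7 members higher (10.4% of all tested genes) and 0 lower (5.96%). KIF1C of kinesin-3 was among them, with a log2 fold change of 0.51 (limma adjusted p = 0.0345), so calls were not confined to dynein and dynactin. Leaving out GST-Ferry 1 together with GST 3 gave 8 higher (11.5%) and 1, NDEL1, lower (6.51%). Both are libraries described above as apart from the others of their group, GST-Ferry 1 in the mRNA of bait subunits. Without the filter on low counts, edgeR called CAPZB alone (1.29% of all tested genes higher, 0.989% lower).

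**Figure D1:**
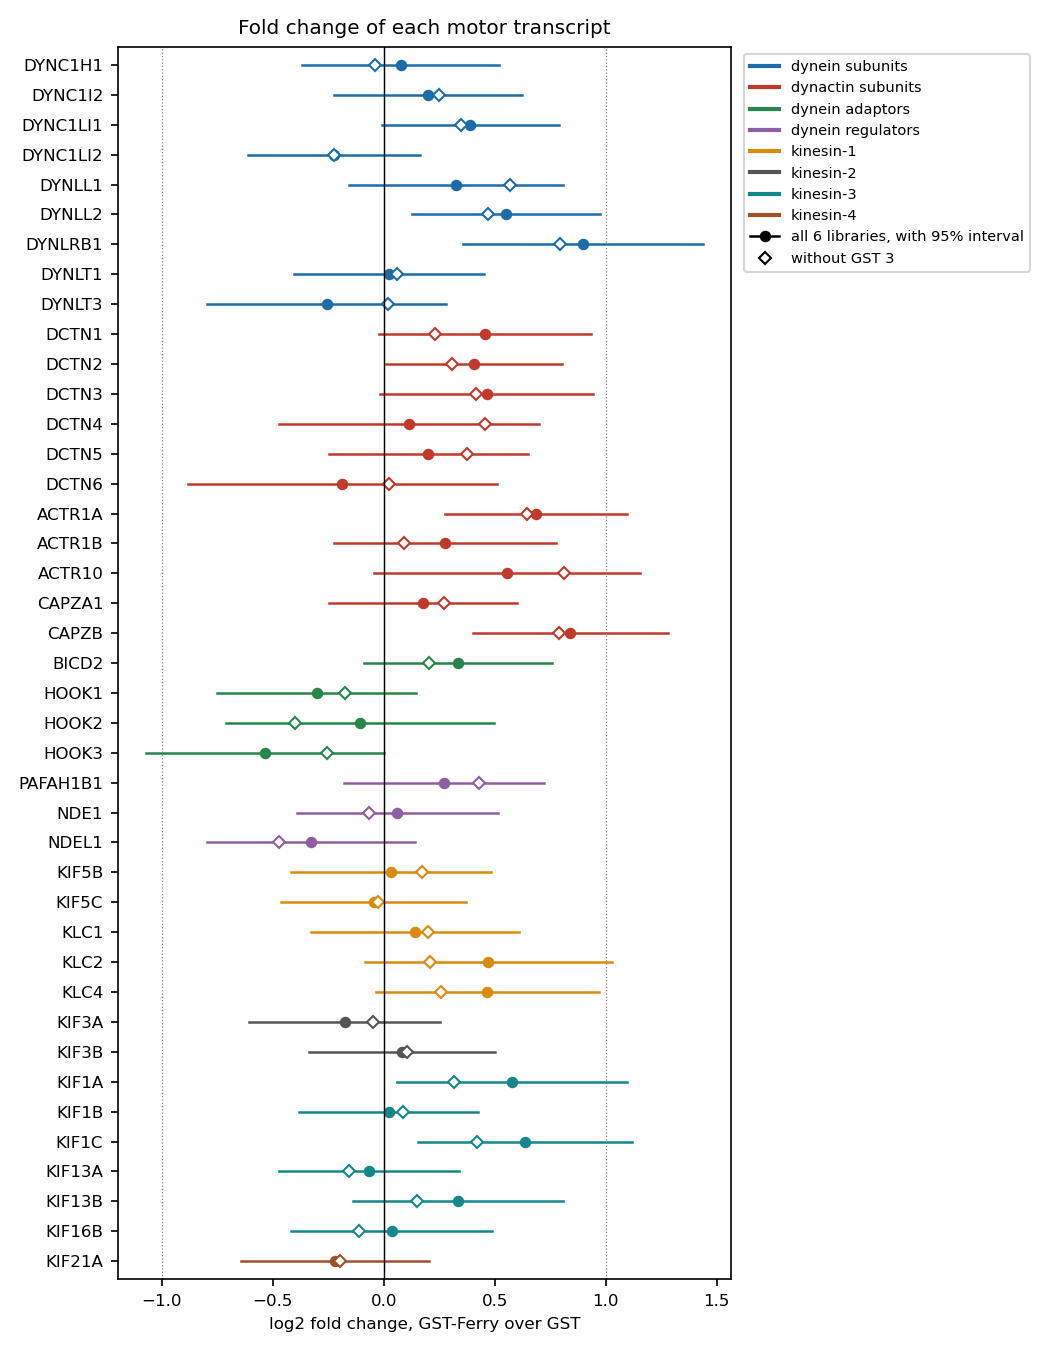
Log2 fold change of GST-Ferry over GST for the 41 genes, grouped by role from top to bottom. Filled circles with lines are the fit over all 6 libraries with its 95% interval, open diamonds the fit without GST 3, and dotted lines mark 1 on either side of 0. CAPZB at 0.84 and DYNLRB1 at 0.90 lie farthest to the right, HOOK3 at -0.54 farthest to the left.

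The dynein light chains DYNLL1 and DYNLL2 are close relatives, so their coding sequences are shown to set out where these differ. The transcripts used here are 814 bases long for DYNLL1 and 6805 for DYNLL2. Sequence outside the coding part was not compared, so how far reads tell the genes apart was not tested. Both code for 267 bases without the stop codon and differ at 54 of them, which are in capitals (identity 79.8%). DYNLL1 lies at chr12:120469850-120498493 and DYNLL2 at chr17:58083415-58095536 of GRCh38, both on the plus strand, and the sequences are those of the principal transcripts of GENCODE 29, read 5′ to 3′.
DYNLL1: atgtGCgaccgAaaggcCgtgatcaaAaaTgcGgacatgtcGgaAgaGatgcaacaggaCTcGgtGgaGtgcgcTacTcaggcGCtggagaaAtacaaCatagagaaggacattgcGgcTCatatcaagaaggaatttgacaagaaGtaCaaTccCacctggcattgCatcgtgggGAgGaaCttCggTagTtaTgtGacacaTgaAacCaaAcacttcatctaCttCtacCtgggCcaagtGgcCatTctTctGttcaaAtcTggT
DYNLL2: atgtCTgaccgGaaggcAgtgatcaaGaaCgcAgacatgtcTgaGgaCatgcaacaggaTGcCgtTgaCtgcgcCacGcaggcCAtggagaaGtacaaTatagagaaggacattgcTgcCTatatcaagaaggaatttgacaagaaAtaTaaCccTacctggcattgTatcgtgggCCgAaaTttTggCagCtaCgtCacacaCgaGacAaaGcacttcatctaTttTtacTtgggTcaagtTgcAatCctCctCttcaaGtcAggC
The longest stretch identical in both spans 25 bases, and differing bases are spread along the whole sequence. The treatment of reads with several matches was not given in the sources used here. DYNLL1 has 7 annotated pseudogenes, which held between 0 and 4 counts together per library, 0.173% of the counts of DYNLL1 itself.

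Among the 9 dynein subunits the median log2 fold change was 0.20, with 7 genes above 0 and 2 below. It was 0.09 without GST-Ferry 2. The heavy chain DYNC1H1, which holds the motor domain, had the most reads of all members. It had 1216, 1127 and 1236 CPM in GST-Ferry 1, 2 and 3, against 1326, 1082 and 989 CPM in GST 1, 2 and 3. The groups overlapped, with GST 1 above every GST-Ferry library. Its fold change on the log2 scale was 0.08 ± 0.20 (SE; 95% interval -0.37 to 0.52; edgeR adjusted p = 0.867). It was -0.04 without GST 3 and -0.00325 with library sizes alone, so no direction can be given.

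Of the 5 light chains, which bind the dynein tail, none passed the test over all libraries, and the groups were apart for DYNLRB1 and DYNLL2. DYNLRB1, of the roadblock family, had 17, 20.7 and 25.2 CPM in GST-Ferry 1, 2 and 3, against 10.4, 12.8 and 10.02 CPM in GST 1, 2 and 3. Each GST-Ferry library exceeded every GST library, on low counts that ran from 52 to 140. Its log2 fold change of 0.90 ± 0.25 (SE; 95% interval 0.36 to 1.44; edgeR adjusted p = 0.0961) was the largest of all members. DYNLL2 had 85.1, 74.8 and 82.6 CPM in GST-Ferry 1, 2 and 3, against 65.2, 49.6 and 50.8 CPM in GST 1, 2 and 3, again without overlap. Its log2 fold change was 0.55 ± 0.20 (SE; 95% interval 0.13 to 0.98; edgeR adjusted p = 0.164). DYNLL1 averaged 157 ± 7.89 CPM with GST-Ferry and 126 ± 37.6 CPM with GST (SD, n = 3 each), and the groups overlapped through GST 3, which at 169 CPM lay above all other libraries. DYNLT1 and DYNLT3, of the Tctex family, had log2 fold changes of 0.02 and -0.26 (edgeR adjusted p = 0.961 and 0.597). That of DYNLT3 was 0.02 without GST 3.

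The light intermediate chains, through which dynein binds its adaptors, lay on opposite sides of 0. DYNC1LI1 had 103, 125 and 114 CPM in GST-Ferry 1, 2 and 3, against 89.4, 85.7 and 84.9 CPM in GST 1, 2 and 3. All GST-Ferry libraries were above all GST libraries, at a log2 fold change of 0.39 ± 0.18 (SE; 95% interval -0.01 to 0.79; edgeR adjusted p = 0.267). For DYNC1LI2, the values were 101, 96.3 and 101 CPM in GST-Ferry 1, 2 and 3, against 109, 119 and 120.1 CPM in GST 1, 2 and 3. It was the 1 member with all GST-Ferry libraries below all GST libraries, at a log2 fold change of -0.22 ± 0.18 (SE; 95% interval -0.61 to 0.16; edgeR adjusted p = 0.515). The intermediate chain DYNC1I2, which joins dynein to dynactin, averaged 90.8 ± 10.3 CPM with GST-Ferry and 79 ± 9.39 CPM with GST (SD, n = 3 each) and overlapped between the groups (log2 fold change 0.20, edgeR adjusted p = 0.602).

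Of the role groups, dynactin had the highest median over all 6 libraries. Of the 11 dynactin subunits among the members, 10 had a fold change above 0, and the median log2 fold change was 0.41. CAPZA2, a dynactin gene outside the 41, lay below 0 with overlapping groups (log2 fold change -0.17, edgeR adjusted p = 0.772). Summed over the 11 genes, dynactin mRNAs came to 1182, 1513 and 1343 CPM in GST-Ferry 1, 2 and 3, against 973, 1001 and 1107 CPM in GST 1, 2 and 3. Each GST-Ferry library was above each GST library, with GST-Ferry 1 the nearest to them. This was not particular to dynactin. Kinesin-3 sums were 760, 799 and 832 CPM in GST-Ferry 1, 2 and 3, against 733, 659 and 605 CPM in GST 1, 2 and 3. Sums over all 41 members were apart in the same direction, and those of the adaptors in the opposite one. Without GST-Ferry 2 the dynactin median was 0.20, and that of kinesin-3, at 0.21, then ranked above it. No dynactin subunit passed the test over all libraries.

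The capping proteins CAPZA1 and CAPZB close the barbed end of the short dynactin filament and also cap actin filaments. CAPZB had 164, 248 and 214 CPM in GST-Ferry 1, 2 and 3, against 114, 123 and 112 CPM in GST 1, 2 and 3. The GST libraries lay close together, and all GST-Ferry libraries were above them. CAPZB had a log2 fold change of 0.84 ± 0.20 (SE; 95% interval 0.40 to 1.28; edgeR adjusted p = 0.0712). The partner subunit CAPZA1 had 205, 259 and 216 CPM in GST-Ferry 1, 2 and 3, against 185, 183 and 233 CPM in GST 1, 2 and 3, with GST 3 among the GST-Ferry libraries. This gave CAPZA1 a log2 fold change of 0.18 ± 0.20 (SE; 95% interval -0.25 to 0.60; edgeR adjusted p = 0.653), which was 0.03 without GST-Ferry 2 and 0.27 without GST 3.

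Actin-related proteins build the filament itself. ACTR1A, the main filament subunit, had 115, 130.5 and 141 CPM in GST-Ferry 1, 2 and 3, against 88.3, 72.9 and 78.7 CPM in GST 1, 2 and 3. There was no overlap, and the log2 fold change was 0.69 ± 0.19 (SE; 95% interval 0.28 to 1.10; edgeR adjusted p = 0.096). Its relative ACTR1B averaged 99.3 ± 16.9 CPM with GST-Ferry and 81.8 ± 21.6 CPM with GST (SD, n = 3 each) with overlapping groups (log2 fold change 0.27, edgeR adjusted p = 0.535; 0.09 without GST 3). ACTR10, at the pointed end, had 56.9, 102 and 61.3 CPM in GST-Ferry 1, 2 and 3, against 37.8, 43.7 and 68.2 CPM in GST 1, 2 and 3. GST 3 was above both GST-Ferry 1 and GST-Ferry 3. ACTR10 had a log2 fold change of 0.55 ± 0.28 (SE; 95% interval -0.04 to 1.15; edgeR adjusted p = 0.291), and of 0.20 without GST-Ferry 2.

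On the shoulder of dynactin, DCTN1 is the large arm that binds microtubules and dynein, DCTN2 is known as dynamitin, and DCTN3 is the smallest subunit there. DCTN1 had 170.1, 179 and 189 CPM in GST-Ferry 1, 2 and 3, against 156, 144 and 91.5 CPM in GST 1, 2 and 3, with a log2 fold change of 0.46 ± 0.22 (SE; 95% interval -0.02 to 0.93; edgeR adjusted p = 0.275). The groups did not overlap, and GST 3 was the lowest library; the value was 0.23 without it. DCTN2 had 103, 103 and 102 CPM in GST-Ferry 1, 2 and 3, against 82.6, 80.1 and 69.4 CPM in GST 1, 2 and 3. The GST-Ferry libraries were almost level and lay above the others. For DCTN2 the log2 fold change was 0.41 ± 0.18 (SE; 95% interval 0.01 to 0.80; edgeR adjusted p = 0.247). For DCTN3, values were 35.3, 55.7 and 38.7 CPM in GST-Ferry 1, 2 and 3, against 29.5, 33.3 and 30.5 CPM in GST 1, 2 and 3. GST-Ferry 2 was the highest and no GST library reached the GST-Ferry libraries, at a log2 fold change of 0.46 ± 0.22 (SE; 95% interval -0.01 to 0.94; edgeR adjusted p = 0.272). Without GST-Ferry 2 it was 0.21. The pointed-end subunits DCTN4, DCTN5 and DCTN6 overlapped between the groups, with log2 fold changes of 0.11, 0.20 and -0.19 (edgeR adjusted p = 0.848, 0.624 and 0.782). GST 3 was the highest of the 6 libraries for all 3 of them, and without it the values were 0.46, 0.37 and 0.03.

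**Figure D2:**
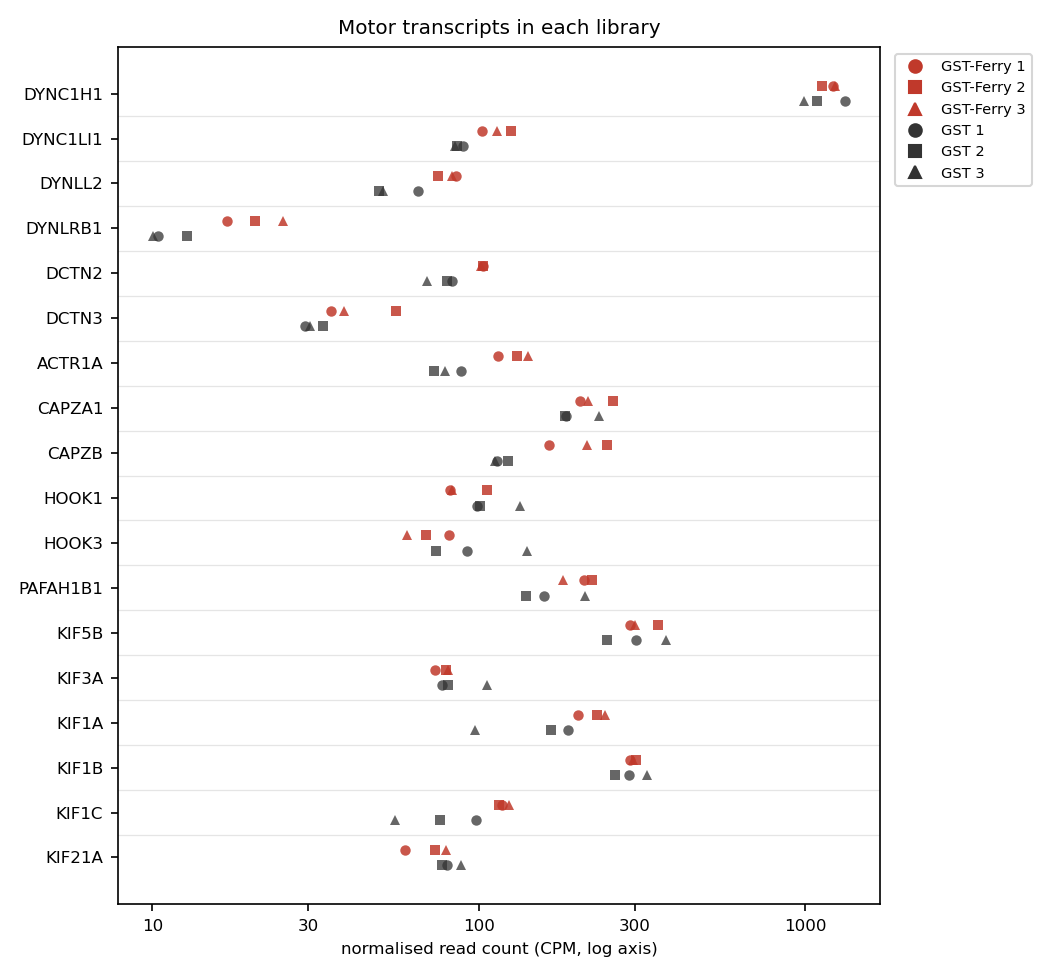
Normalised read count (CPM, log axis) in each library of 18 members, the 10 with the smallest p and the one with the highest mean CPM of each role group, red for GST-Ferry above black for GST in each row, with 1 symbol per replicate number. The groups are apart for CAPZB, ACTR1A and DYNLRB1 and overlap for DYNC1H1, KIF5B and KIF1B.

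Of the 4 adaptors, which couple cargo to dynein and dynactin, 3 had a fold change below 0 and the median log2 fold change was -0.20. The median was -0.10 without GST 2 and -0.04 with offsets for GC content and length. HOOK1 and HOOK3 belong to the complex that links early endosomes to dynein. HOOK3 had 80.9, 68.8 and 60.5 CPM in GST-Ferry 1, 2 and 3, against 91.8, 74 and 141 CPM in GST 1, 2 and 3. GST 3 lay far above the other 5 libraries, and GST 2 fell within the range of the GST-Ferry libraries. Its log2 fold change of -0.54 ± 0.25 (SE; 95% interval -1.07 to -0.00; edgeR adjusted p = 0.258) was the lowest of all members, and it was -0.26 without GST 3. HOOK1 had 81.6, 106 and 83.1 CPM in GST-Ferry 1, 2 and 3, against 99, 101 and 134 CPM in GST 1, 2 and 3. GST-Ferry 2 lay above GST 1 and GST 2, so the groups overlapped. For HOOK1 the log2 fold change was -0.30 ± 0.21 (SE; 95% interval -0.75 to 0.15; edgeR adjusted p = 0.444), and it was -0.18 without GST 3 and -0.47 without GST-Ferry 2. HOOK2 spread widely with GST and averaged 33.9 ± 2.63 CPM with GST-Ferry and 36.3 ± 14.6 CPM with GST (SD, n = 3 each; log2 fold change -0.11, edgeR adjusted p = 0.863). Without GST 3 the value of HOOK2 was -0.40, and without GST 2 it was 0.18. BICD2, an adaptor of Golgi-derived and nuclear cargo, had 75.5, 72.8 and 75.7 CPM in GST-Ferry 1, 2 and 3, against 69.6, 57.9 and 50.2 CPM in GST 1, 2 and 3. All GST-Ferry libraries lay above all GST libraries, at a log2 fold change of 0.33 ± 0.20 (SE; 95% interval -0.09 to 0.76; edgeR adjusted p = 0.371), and of 0.20 without GST 3.

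The regulators PAFAH1B1, NDE1 and NDEL1 bind dynein and help it form its active complex. Their median log2 fold change was 0.06, and -0.07 without GST 3. PAFAH1B1, also known as LIS1, had 209.8, 222 and 181 CPM in GST-Ferry 1, 2 and 3, against 159, 139 and 211 CPM in GST 1, 2 and 3. GST 3 fell among the GST-Ferry libraries. PAFAH1B1 had a log2 fold change of 0.27 ± 0.21 (SE; 95% interval -0.18 to 0.72; edgeR adjusted p = 0.495), which was 0.43 without GST 3 and 0.13 without GST 2. NDE1 and NDEL1 had log2 fold changes of 0.06 and -0.33 (edgeR adjusted p = 0.897 and 0.425).

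Kinesin-1, the main plus-end motor for organelles, had a median log2 fold change of 0.14 over its 5 genes, 4 of them above 0. Without GST 2 the median was -0.02. The heavy chain KIF5B had 291, 354 and 301 CPM in GST-Ferry 1, 2 and 3, against 302, 248 and 375 CPM in GST 1, 2 and 3. GST 3 was the highest library and GST 2 the lowest, with the GST-Ferry libraries between them. The log2 fold change was 0.03 ± 0.21 (SE; 95% interval -0.42 to 0.48; edgeR adjusted p = 0.948), and its sign turned without GST 2, without GST-Ferry 2, with library sizes alone and without the filter. The neuronal heavy chain KIF5C averaged 57 ± 6.14 CPM with GST-Ferry and 58.7 ± 5.46 CPM with GST (SD, n = 3 each; log2 fold change -0.05, 95% interval -0.46 to 0.37). The light chains bind cargo and keep the motor folded when it has none. KLC1, KLC2 and KLC4 had log2 fold changes of 0.14, 0.47 and 0.47 (edgeR adjusted p = 0.757, 0.335 and 0.29), and the groups overlapped for each. GST 3 was the lowest library for KLC2, at 27.5 CPM, and without it the log2 fold change was 0.21 for KLC2 and 0.26 for KLC4.

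KIF3A and KIF3B pair as the motor subunits of kinesin-2, which serves cilia and vesicle transport. Their median log2 fold change was -0.05, and 0.03 without GST 3. KIF3A had 73.3, 79.6 and 80.5 CPM in GST-Ferry 1, 2 and 3, against 77.2, 80.5 and 106 CPM in GST 1, 2 and 3. Only GST 3 stood clear of the other libraries, and it was the highest. KIF3A had a log2 fold change of -0.18 ± 0.20 (SE; 95% interval -0.61 to 0.25; edgeR adjusted p = 0.656), and of -0.05 without GST 3. KIF3B had a log2 fold change of 0.08 (edgeR adjusted p = 0.842).

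Within kinesin-3, which includes motors of synaptic vesicle precursors and endosomes, the median log2 fold change was 0.18 over 6 genes, of which 5 lay above 0. The median was 0.10 without GST-Ferry 3 and 0.12 without GST 3, with 4 genes above 0 in that fit. KIF1C had 118, 115 and 124 CPM in GST-Ferry 1, 2 and 3, against 98.4, 76.1 and 55.4 CPM in GST 1, 2 and 3. All GST-Ferry libraries were above all GST libraries. KIF1C had a log2 fold change of 0.63 ± 0.22 (SE; 95% interval 0.15 to 1.12; edgeR adjusted p = 0.16). KIF1A, best known as a neuronal motor, had 201, 229.5 and 244 CPM in GST-Ferry 1, 2 and 3, against 188, 166 and 97.7 CPM in GST 1, 2 and 3. It too did not overlap, and GST 3 was far below the other libraries. The log2 fold change was 0.58 ± 0.24 (SE; 95% interval 0.06 to 1.10; edgeR adjusted p = 0.218). Without GST 3 these values came to 0.42 for KIF1C and 0.32 for KIF1A. KIF1B, with the most reads of the family, had 291, 303 and 296 CPM in GST-Ferry 1, 2 and 3, against 288, 261 and 328 CPM in GST 1, 2 and 3. The GST-Ferry libraries fell inside the spread of the GST libraries. Its log2 fold change was 0.02 ± 0.19 (SE; 95% interval -0.38 to 0.42; edgeR adjusted p = 0.96), with a sign that turned under 7 of 16 alternatives.

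The kinesin-3 motors tied to endosomes did not pass the test. KIF16B, which carries early endosomes, had 40.2, 41.4 and 52.6 CPM in GST-Ferry 1, 2 and 3, against 45.4, 48.5 and 36.2 CPM in GST 1, 2 and 3. The groups overlapped throughout, and the log2 fold change was 0.04 ± 0.21 (SE; 95% interval -0.42 to 0.49; edgeR adjusted p = 0.941), with -0.11 without GST 3. KIF13A, a motor of recycling endosomes, and KIF13B had log2 fold changes of -0.07 (95% interval -0.47 to 0.34) and 0.33 (95% interval -0.14 to 0.81). Without GST 3 these were -0.16 and 0.15. KIF21A of kinesin-4, which restrains microtubule growth at the cell cortex, had 59.3, 73.2 and 79.6 CPM in GST-Ferry 1, 2 and 3, against 80.2, 77.4 and 88.4 CPM in GST 1, 2 and 3. GST-Ferry 1 was the lowest library, and GST-Ferry 3 lay above GST 2. The log2 fold change was -0.22 ± 0.20 (SE; 95% interval -0.64 to 0.20; edgeR adjusted p = 0.56), and -0.10 without GST-Ferry 1.

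Base composition moved with these differences. Across the 41 members, the log2 fold change and the GC content of the principal transcript had a Spearman correlation of 0.58, and across 12859 tested protein-coding genes it was 0.59. These are descriptions across genes that share the same 6 libraries. Without GST 3 the correlation was 0.21 over the members and 0.26 over all protein-coding genes. The deviation of GST 3 from the mean of GST 1 and GST 2 itself had a correlation of -0.84 with GC content over the members and -0.74 over the protein-coding genes. KLC2, the richest member in GC at 63.0%, was lowest in GST 3, and DYNLT3, the poorest at 34.6%, was highest there at 46.7 CPM. The part of base composition in each difference between the baits was not tested. A fit of edgeR's quasi-likelihood test that took GC content and transcript length into account as offsets, chosen after seeing the data, called 2 members higher. On the log2 scale these were CAPZB at 0.82 (adjusted p = 0.0385) and DYNLRB1 at 0.90 (adjusted p = 0.049). It called 1.68% of all tested genes higher and 0.27% lower.

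**Figure D3:**
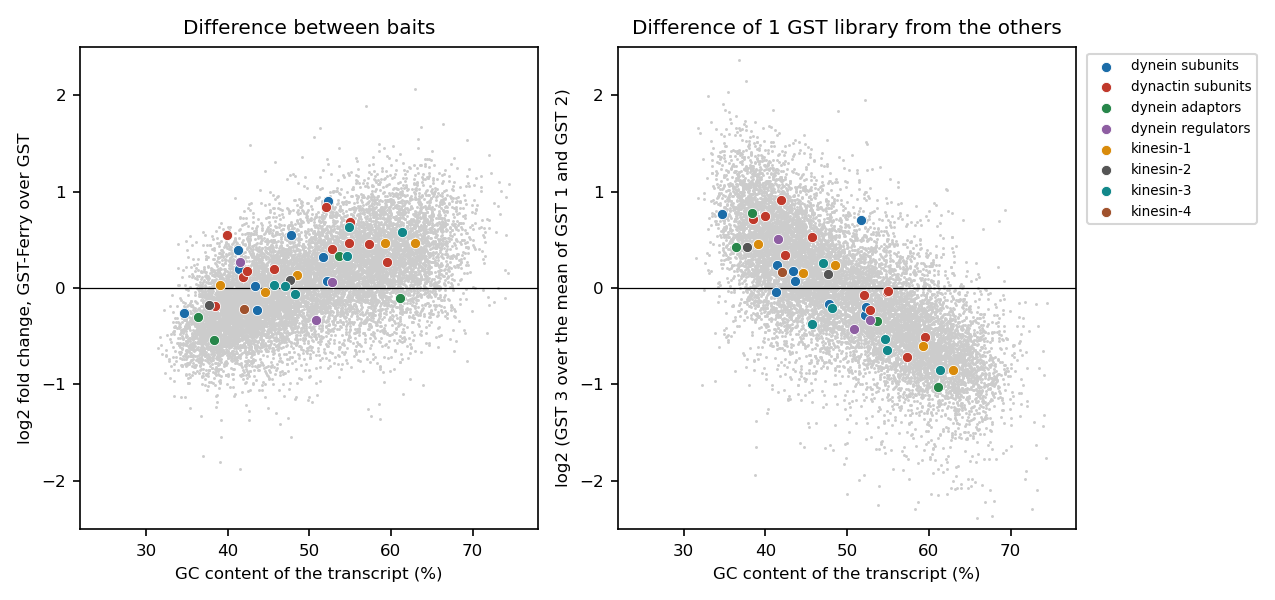
Left, log2 fold change of GST-Ferry over GST against the GC content of each transcript. Right, log2 difference of GST 3 from the mean of GST 1 and GST 2 against the same axis. Coloured points are the 41 members by role and grey points the tested protein-coding genes; members follow the grey cloud upwards with GC on the left (Spearman 0.58) and downwards on the right (-0.84).

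Ratios of related genes within a library do not depend on how libraries are scaled. They were compared for 11 pairs with an exact permutation test over the 6 libraries, two-sided, in which 3 against 3 libraries cannot go below p = 0.1, and no pair could pass. Groups did not overlap for 3 of the 11 pairs, each at an exact permutation p of 0.1 (0.367 adjusted over the pairs). Read counts of single genes, a different measure, did not overlap for 27.1% of all tested genes. No share over other gene pairs was computed, and the ratios are given as a description. The log2 ratio of DYNC1LI1 to DYNC1LI2 was 0.02, 0.38 and 0.17 in GST-Ferry 1, 2 and 3, against -0.29, -0.47 and -0.50 in GST 1, 2 and 3. DYNC1LI1 had more reads than DYNC1LI2 in every GST-Ferry library and fewer in every GST library. The difference was 0.61, and it ranged from 0.52 to 0.70 when each library was left out. KIF1B to KIF1C had log2 ratios of 1.30, 1.39 and 1.26 in GST-Ferry 1, 2 and 3, against 1.55, 1.78 and 2.57 in GST 1, 2 and 3. KIF1B had more reads than KIF1C in all 6 libraries, by less in the GST-Ferry libraries, with a difference of -0.65, and of -0.35 without GST 3. The GC contents of these transcripts are 47.1% for KIF1B and 54.9% for KIF1C, against 41.3% for DYNC1LI1 and 43.6% for DYNC1LI2. For NDE1 to NDEL1, the log2 ratios were 0.50, 0.44 and 0.85 in GST-Ferry 1, 2 and 3, against 0.27, 0.09 and 0.27 in GST 1, 2 and 3. All GST-Ferry libraries were higher, at a difference of 0.39.

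The other 8 pairs overlapped between the groups. KIF5B to KIF5C was nearly constant with GST-Ferry, with a mean log2 ratio of 2.47 ± 0.01, and 2.38 ± 0.31 with GST (SD, n = 3 each). DYNLL1 to DYNLL2, whose sequences are given above, had log2 ratios of 0.94, 0.99 and 0.94 in GST-Ferry 1, 2 and 3, against 0.68, 1.06 and 1.73 in GST 1, 2 and 3. The GST-Ferry values were almost equal and lay inside the wide spread of the GST libraries. ACTR1A to ACTR1B had the longest identical stretch of coding sequence of the 11 pairs, at 35 bases.

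**Figure D4:**
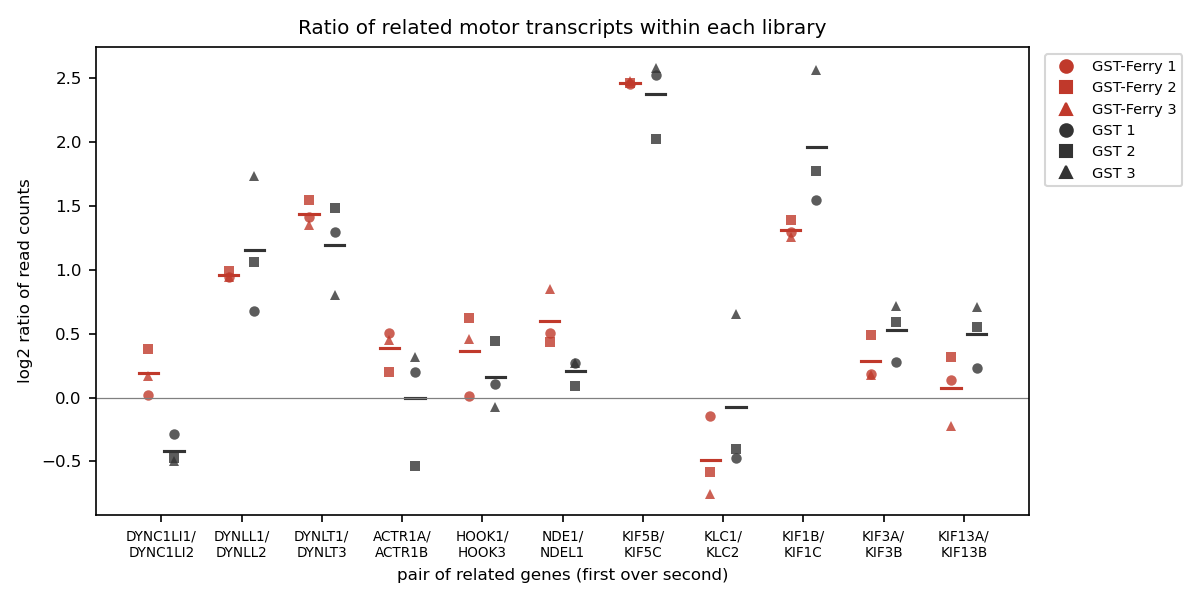
Log2 ratio of read counts of the first over the second gene of each pair, per library, with GST-Ferry (red) left of GST (black) and bars at the mean of 3 libraries. The groups are apart for DYNC1LI1/DYNC1LI2, NDE1/NDEL1 and KIF1B/KIF1C.

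Among 46 further genes of microtubule motors and their partners, 45 had enough counts to be tested, and DYNLRB2 did not. They comprised other dynein and dynactin genes, adaptors, transport kinesins and mitotic kinesins. With edgeR's quasi-likelihood test 0 were called, beside 0.592% of all tested genes higher and 0.0322% lower. By its unadjusted p (under 0.05), 4 were higher and 3 lower, beside 11.3% and 8.05% of all tested genes. DESeq2 called 1 higher (4.35% of all tested genes) and limma-voom 0 (0.0901%). The groups did not overlap for 10 of the 45, beside 27.1% of all tested genes. A fold change above 0 was found for 23 and below 0 for 22, with a median log2 fold change of 0.04. The smallest p-values among those higher were for KIF26A, with 55.4 ± 6.33 CPM with GST-Ferry and 30.2 ± 10.6 CPM with GST (SD, n = 3 each; log2 fold change 0.86, adjusted p = 0.113), and the light chain KLC3 (log2 fold change 0.91, adjusted p = 0.159), both by edgeR's quasi-likelihood test. Among those lower they were for AKTIP, a partner of the HOOK proteins, and for the mitotic kinesin KIF20B. AKTIP had 12.1, 10.7 and 10.9 CPM in GST-Ferry 1, 2 and 3, against 19.2, 15.8 and 19.2 CPM in GST 1, 2 and 3. Its GST-Ferry libraries lay below all GST libraries, at a log2 fold change of -0.67 ± 0.24 (SE; 95% interval -1.18 to -0.15; edgeR adjusted p = 0.164). KIF20B had a log2 fold change of -0.47 (edgeR adjusted p = 0.197), also without overlap.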

How the data were processed

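The authors deposited 1 table of counts, not normalised, with 1 row per Ensembl gene ID. The submitters' processing notes name STAR 2.5.2b, bcl2fastq 2.19.1 and the build GRCh38.p13. Libraries kept strand information after ribosomal RNA was removed, per the labels' protocols. The sources used here name no counting program, annotation or strand setting. Per the file headers, columns are named control or sample with a number. Control was taken to mean GST and sample to mean GST-Ferry, with matching numbers, which is an assumption. Symbols came from a table of gene names. Coordinates, lengths and GC content came from GENCODE 29, for the longest principal transcript.

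Low genes were removed with filterByExpr (minimum count 10, minimum total 15). Counts were scaled with TMM and tested with edgeR 4.0.16 (R 4.3.3, quasi-likelihood test, two-sided, no covariate, Benjamini-Hochberg adjustment over 15546 genes, threshold 0.05). Intervals are 95% intervals from that fit. A floor of 3 counts equals 0.287 to 1.22 CPM (counting error only). The labels do not tie replicates to separate cultures, so the spread behind each p-value may be technical. Alternatives were RLE factors, library sizes alone, no filter, DESeq2 1.42.0, limma-voom and library weights (limma 3.58.1), the replicate block and removal of the 5 bait genes. Further ones were each library left out, GST 3 and GST-Ferry 1 left out together, and offsets for GC and length. Members, lists and pairs were chosen with earlier results of these data known. Full statistics were given to the 10 members with the smallest p and to the one with the highest mean CPM of each role group. DCTN1, DYNC1LI2, ACTR10, BICD2 and KIF16B were added after their values were seen. Figures were drawn with matplotlib 3.10.9.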

Additional observations from a re-analysis of the deposited data

How the results depend on the processing

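RLE factors, limma-voom, the replicate block and removal of the bait genes changed no count of called members and no sign of a named member. With library sizes alone the member median was 0.12 and that of the adaptors -0.28, and DYNC1H1 (-0.00325), KIF5B (-0.0264) and KIF1B (-0.0388) turned sign. Without the filter 1 member and 1 other motor gene were called higher (1.29% of all tested genes). The medians were then 0.12 (members) and -0.26 (adaptors), and KIF5B (-0.0235) and KIF1B (-0.0326) turned sign. DESeq2 called 2 members and 1 other motor gene higher (4.35% of all tested genes), and KIF1B was at -0.00178. Library weights called 7 members and 3 other motor genes higher (10.4% of all tested genes), and 3 other motor genes lower (5.96%). The medians were then 0.25 (members) and 0.30 (dynein). The offsets for GC and length, chosen after seeing the data, called 2 members higher (1.68% of all tested genes). The medians were then 0.31 (dynein), -0.0423 (adaptors), 0.16 (kinesin-2) and -0.0118 (kinesin-4), with HOOK1 at 0.077 and KIF3A at 0.16. The cause of these shifts was not tested.

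With 1 library left out, 0 to 5 members were called higher and 0 lower, and 0 other motor genes higher and 0 to 2 lower. The calls came without GST 3, where 4.45% of all tested genes were called higher and 3.54% lower. Medians ran from 0.10 to 0.25 (members), 0.0866 to 0.29 (dynein), 0.20 to 0.45 (dynactin), -0.29 to -0.10 (adaptors), -0.0165 to 0.20 (kinesin-1) and -0.34 to -0.10 (kinesin-4). DYNC1H1 ran from -0.0408 to 0.19, KIF5B from -0.12 to 0.17 and KIF1B from -0.0726 to 0.0865. The difference of the DYNLL1/DYNLL2 ratio ran from -0.44 to 0.0884 and that of KIF5B/KIF5C from -0.0849 to 0.19. Without GST 3 and GST-Ferry 1 together, 8 members were called higher (11.5% of all tested genes) and 1, NDEL1, lower (6.51%), and 4 other motor genes in each direction. The medians were then 0.25 (members), 0.37 (dynein), 0.25 (kinesin-1) and -0.045 (kinesin-4), with DYNC1H1 at -0.0274, KIF3A at 0.0216, KIF1B at 0.13 and KIF5B at 0.25. Over all genes, calls ran from 0 without GST-Ferry 2 to 1754 higher and 992 lower without both libraries, against 92 and 5 with all 6.

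Deviations from the group means correlated at 0.23, 0.07 and -0.14 between libraries of equal replicate number, and only GST-Ferry 1 correlated best with its own number. With 3 libraries per group and numbers matched by assumption, these values cannot show whether the libraries were paired. With the replicate block 0 members were called (smallest edgeR adjusted p = 0.0704), beside 167 genes higher and 28 lower over all genes. DCTN6, with the lowest count of any member (35), had an SE of 0.32.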

Other observations

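Per length of the principal transcript, the subunits of the dynein and dynactin complexes differed widely in level. DYNLL1 had 193 CPM per kb with GST-Ferry and 154 with GST, CAPZB 243 CPM per kb with GST-Ferry and 135 with GST and the heavy chain DYNC1H1 59.6 CPM per kb with GST-Ferry and 56.6 with GST. The lowest levels per length were those of HOOK3, with 4.87 CPM per kb with GST-Ferry and 7.1 with GST, and of KIF13B, with 6.22 CPM per kb with GST-Ferry and 4.92 with GST. The length used for CAPZB was 858 bases, and a longer transcript would give it a lower level.

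Short transcripts lay higher by median. The median log2 fold change was 0.36 for the 16 members under 3000 bases and 0.0837 for the 25 longer ones. A fold change above 0 was found for 12 of the 16 and for 18 of the 25. Over all tested protein-coding genes the medians were 0.15 and -0.066. The Spearman correlation of log2 fold change with length was -0.21 over the members and -0.26 over all protein-coding genes, as a description across genes. The part of length in the result was not tested.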
